A study of Mus musculus with 5 samples.

Results

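The 10 genes described here encode proteins that place or maintain repressive chromatin marks, with their close partners: Dnmt1, Uhrf1, Dnmt3a, Dnmt3b and Hells for DNA methylation, Ezh2, Eed and Suz12 for the Polycomb repressive complex 2, Suv39h1 for heterochromatin, and Hmgb2. They were taken by symbol, on a list drawn up with earlier results of these data known, from the 49671 genes with counts in mouse hearts at postnatal day 2 (P2). Of the members, 10 of 10 had at least 10 counts in at least 2 pools, as did 14880 genes in all. Hmgb2 is an architectural protein that bends DNA and writes no mark. Charme is a long noncoding RNA of striated muscle. Charme KO mice, on the C57BL6/J strain like the controls, carry a transcription stop (a polyadenylation signal) inserted in the Charme locus. The insertion is in every cell and not limited to cardiomyocytes. In embryonic hearts, the study's authors found the nuclear form of Charme only in cardiomyocytes. The controls were Charme WT littermates with no inserted allele and no group received a treatment. Polyadenylated RNA of whole hearts was sequenced from 3 Charme WT pools of 9 hearts each and 2 Charme KO pools of 3 hearts each. The question the comparison addresses is which heart genes depend on Charme after birth. The number of hearts per pool went with genotype, so pool size and genotype cannot be told apart, and p-values measure the spread between pools, not between animals.

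DNA methylation in mammals is copied after each round of replication and set anew at other times. DNMT1 restores the methyl group on the new strand, guided by UHRF1, which recognises half-methylated sites, while DNMT3A and DNMT3B methylate sites that carried no mark and the remodeller HELLS (LSH) opens nucleosomal DNA to them. The Polycomb repressive complex 2 (PRC2) methylates lysine 27 of histone H3, with EZH2 as its usual enzyme, EZH1 as the alternative enzyme of cells that no longer divide, and EED and SUZ12 as obligatory core subunits. SUV39H1 methylates lysine 9 of histone H3 at pericentromeric repeats. In the heart the days after birth are those in which cardiomyocytes leave the cell cycle, and most of these genes are expressed at higher levels in dividing cells, where E2F and related factors drive their promoters.

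The promoters are shown because the members differ in which motifs of cell cycle promoters they hold. RefSeq start sites on GRCm38.p6 gave 16 windows of 300 bases for the 10 members, from 250 bases before to 50 bases after the start. Each window was searched on both strands for the CCAAT box (letters CCAAT), for the core of the cell cycle genes homology region, or CHR (letters TTTGAA), and for an E2F motif (letters TTTNNCGC, with CC, CG, GC or GG at the N positions). The 5 windows below belong to Hmgb2, to Dnmt3a, to Hells, and to Dnmt1 and Ezh2. The last 2 are members with small log2 fold changes of Charme KO over Charme WT (−0.05 and 0.21). They are written 5′ to 3′ on the gene's strand, and capitals mark every match, so that a run of CCAATTGG holds a CCAAT box on each strand.
Hmgb2 (chr8:57511593-57511892, plus strand): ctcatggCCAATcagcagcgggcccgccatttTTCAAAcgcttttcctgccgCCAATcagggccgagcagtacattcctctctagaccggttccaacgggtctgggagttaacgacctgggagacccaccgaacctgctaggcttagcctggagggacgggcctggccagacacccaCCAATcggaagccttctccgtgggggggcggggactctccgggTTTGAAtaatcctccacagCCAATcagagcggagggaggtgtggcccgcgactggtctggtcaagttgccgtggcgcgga
Dnmt3a (chr12:3806730-3807029, plus strand, the first of 3 windows): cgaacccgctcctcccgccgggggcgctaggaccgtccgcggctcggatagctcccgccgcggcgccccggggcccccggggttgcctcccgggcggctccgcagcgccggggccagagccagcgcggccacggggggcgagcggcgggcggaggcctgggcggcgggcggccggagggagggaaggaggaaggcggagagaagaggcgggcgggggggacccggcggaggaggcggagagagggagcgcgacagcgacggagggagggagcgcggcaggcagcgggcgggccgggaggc
Hells (chr19:38930740-38931039, plus strand): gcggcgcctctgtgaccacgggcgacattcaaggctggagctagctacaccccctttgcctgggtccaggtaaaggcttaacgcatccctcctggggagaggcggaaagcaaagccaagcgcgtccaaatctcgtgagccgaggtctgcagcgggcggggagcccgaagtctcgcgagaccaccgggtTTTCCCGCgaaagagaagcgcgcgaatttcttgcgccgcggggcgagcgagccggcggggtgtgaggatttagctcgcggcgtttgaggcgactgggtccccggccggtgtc
Dnmt1 (chr9:20952574-20952873, minus strand, the last of 3 windows): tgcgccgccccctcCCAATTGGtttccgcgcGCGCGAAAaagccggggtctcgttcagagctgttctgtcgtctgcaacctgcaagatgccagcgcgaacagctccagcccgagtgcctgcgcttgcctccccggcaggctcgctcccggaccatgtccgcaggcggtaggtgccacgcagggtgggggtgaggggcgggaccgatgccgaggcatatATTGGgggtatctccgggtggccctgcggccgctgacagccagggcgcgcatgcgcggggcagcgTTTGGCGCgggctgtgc
Ezh2 (chr6:47594981-47595280, minus strand): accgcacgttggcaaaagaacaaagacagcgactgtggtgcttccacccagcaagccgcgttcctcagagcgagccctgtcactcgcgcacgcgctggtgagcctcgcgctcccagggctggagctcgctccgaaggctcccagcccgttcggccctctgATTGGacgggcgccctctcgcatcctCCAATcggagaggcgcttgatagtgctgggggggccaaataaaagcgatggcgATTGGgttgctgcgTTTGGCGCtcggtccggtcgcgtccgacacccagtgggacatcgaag

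The Hmgb2 window held 4 CCAAT boxes and 2 CHR matches and no E2F match, whereas the Dnmt3a windows held none of the 3 motifs at a GC content of 82.3% in the window shown. Hells held a single E2F match, Ezh2 held 3 CCAAT boxes with 1 E2F match, and the Dnmt1 window shown held 3 CCAAT boxes with 2 E2F matches. The first Dnmt1 window, which is not shown, held 5 CCAAT boxes and 1 CHR match, and the second held none of the 3 motifs. Eed and Suz12, like Hmgb2, also held both a CCAAT box and a CHR match. An E2F match was found in a window of 6 of the 10 members (Dnmt1, Uhrf1, Hells, Ezh2, Suz12 and Suv39h1). Over all 32851 promoter windows of the same length, 2.26% held this E2F motif, 37.4% a CCAAT box, 17.9% a CHR, and 6.95% both a CCAAT box and a CHR. Over the 14061 windows of genes tested here the shares were 3.79%, 37.3%, 11.9% and 4.76%. Among the member windows these shares were 37.5% (6 of 16), 56.2% (9 of 16), 31.2% (5 of 16) and 25% (4 of 16). A match is a description of the letters and not a measured site of binding.

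**Figure D1:**
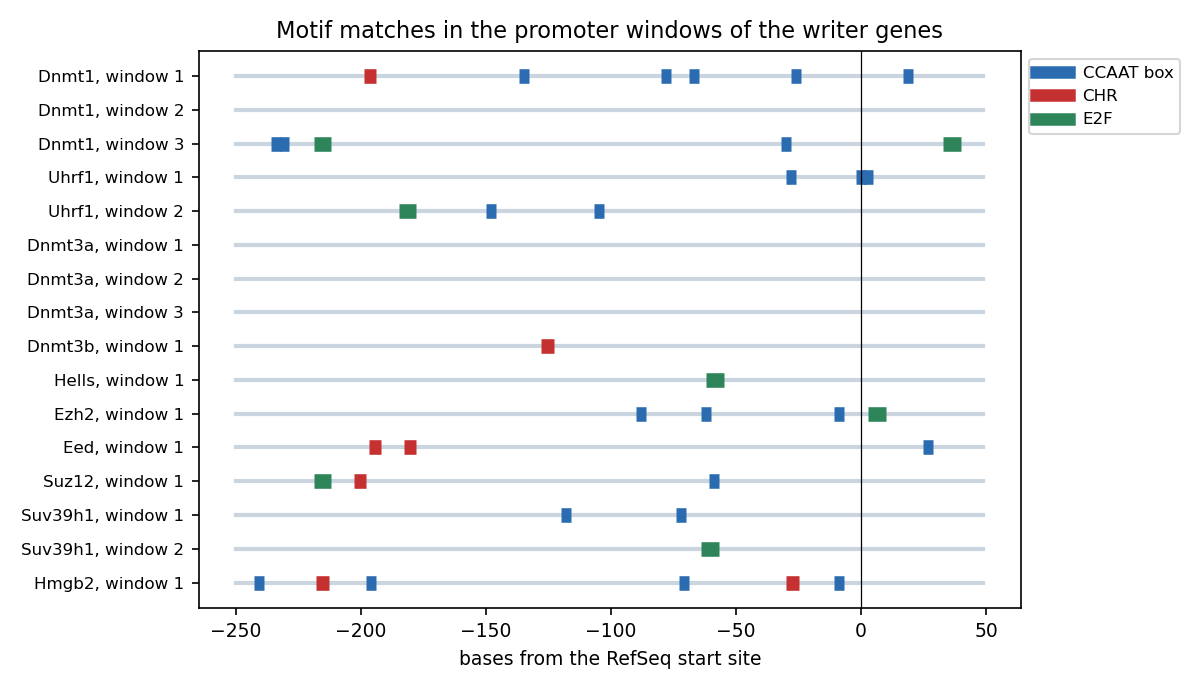
Positions of motif matches in the 16 promoter windows of the 10 genes, in bases from the RefSeq start site (0, vertical line), with blue for CCAAT boxes, red for CHR and green for E2F matches. The Hmgb2 row holds 4 blue and 2 red marks and no green mark, and the 3 Dnmt3a rows are empty.

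The libraries held 16721055 to 21646378 counts assigned to genes. For Charme itself 810, 183 and 276 counts were assigned in controls against 57 and 79 in the knockouts, which was lower in each knockout but not 0. The cardiomyocyte markers (Actc1, Tnnt2, Myh6, Tnni3, Ryr2 and Nkx2-5) summed to 32968 to 43606 CPM (counts scaled to a common library size) in Charme WT and to 33288 and 35434 in Charme KO pools. Endothelial markers summed to 792 to 1043 against 716 and 853 CPM, fibroblast markers to 1839 to 2225 against 2660 and 2638 CPM, and macrophage markers to 60.8 to 106 against 70.5 and 129 CPM. The Charme KO pools stood apart from the Charme WT pools, and from each other, in other respects. Charme KO pool 1 had 21.1% of its counts on mitochondrial genes against 9.68% to 11.1% in the other 4 pools, and its median gene of low GC content (under 44.94%) lay 0.47 above the Charme WT mean on the log2 scale while its median gene of high GC content (over 54.48%) lay 0.47 below it. Charme KO pool 2 had 24822 CPM on 7 salivary gland genes, against 326 in Charme KO pool 1 and at most 0.202 in Charme WT pools, and 1030 CPM on adipose genes against 28.4 to 69.3 elsewhere. The skeletal muscle list summed to 2995 to 3853 CPM in Charme WT and to 4172 and 3741 CPM in Charme KO pools. Of its 6 tested genes, 3 were called higher and 4 lay above all controls, beside 1.53% and 17.8% of all genes. Their median log2 fold change was 2.31. Each member's log2 fold change is therefore also given for each Charme KO pool alone. That setting has 1 Charme KO sample, so the spread comes from the 3 controls only and the lone pool is assumed to vary as they do. Its p-values are not given, since it called 2336 genes higher and 2271 lower over the whole table with Charme KO pool 1 alone.

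In Charme WT hearts the 10 genes spanned a wide range of levels, given here in FPKM, the count scaled to exon length and library depth, so that genes of different length can be compared. Hmgb2 was the most abundant at 31.5 ± 3.63 FPKM (SD, n = 3 pools), followed by Suz12 at 10.6 ± 0.880, Dnmt1 at 8.28 ± 0.961, Uhrf1 at 7.76 ± 2.50, Dnmt3a at 7.47 ± 0.861, Eed at 5.43 ± 0.891, Ezh2 at 4.10 ± 0.377 and Suv39h1 at 2.66 ± 0.506. Hells (0.973 ± 0.151) and Dnmt3b (0.731 ± 0.156) lay near or below 1 FPKM. The ranges of Dnmt1, Uhrf1 and Dnmt3a overlapped each other, as did those of Hells and Dnmt3b, whereas Eed exceeded Ezh2 in all 5 pools. The Dnmt3a message was far more abundant than that of Dnmt3b, since the ratio Dnmt3b/Dnmt3a, taken within each pool, was 0.0902, 0.0923 and 0.111.

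**Figure D2:**
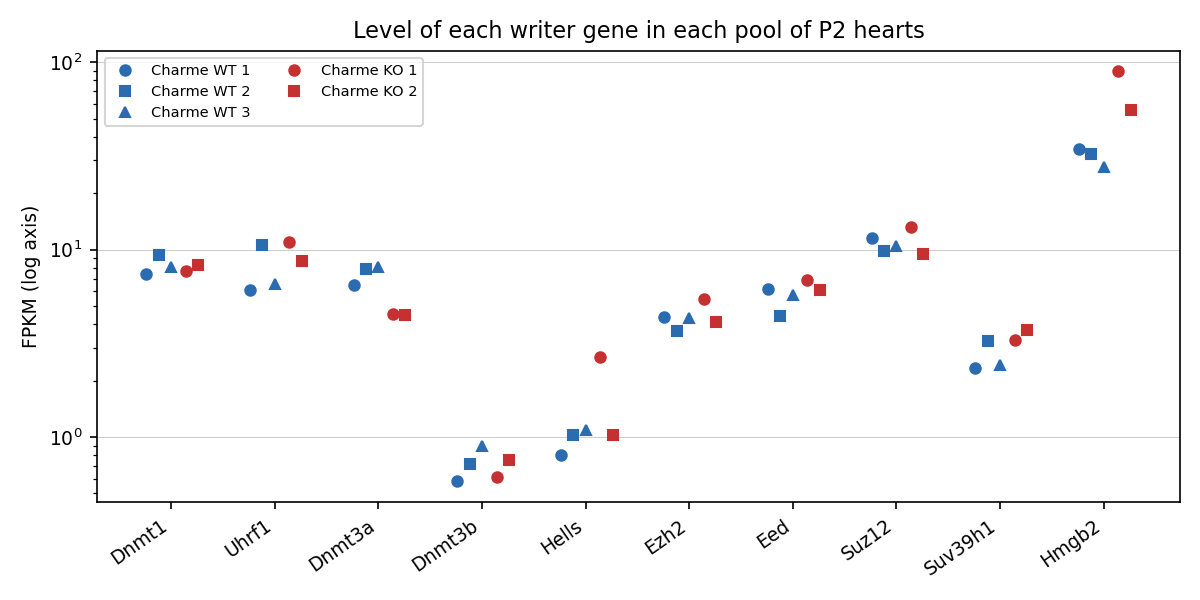
Level of each of the 10 genes in FPKM (log axis) in each pool, with blue symbols for the 3 Charme WT pools and red symbols for the 2 Charme KO pools. Both red Hmgb2 points (89.6 and 55.7) lie above the blue ones (27.5 to 34.6), both red Dnmt3a points (4.56 and 4.48) lie below the blue ones (6.48 to 8.07), and a single red Hells point (2.67) stands away from the rest.

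Between genotypes, Hmgb2 rose 2.31-fold and no other member passed the test. A gene was called where edgeR's quasi-likelihood test gave an adjusted p under 0.1, by the Benjamini-Hochberg method over all 14880 genes, with a mean of at least 1 FPKM in at least 1 genotype. By that rule 1 of 10 members was higher and 0 of 10 were lower in Charme KO, beside 1.53% of all genes tested called higher and 0.524% called lower. Before adjustment, 3 of the 10 had p under 0.05 (Dnmt3a, Hells and Hmgb2). The likelihood ratio test called 1 member higher (Hmgb2) and 1 lower (Dnmt3a), beside 3.92% and 2.35% of all genes, and DESeq2 called the same pair, beside 4.33% and 3.21%. The genotypes did not overlap for 3 members, with Hmgb2 and Suv39h1 higher and Dnmt3a lower in each Charme KO pool than in any control, beside 17.8% and 18.2% of all genes so placed above and below. These 2 and 1 of 10 members are close to that background. The median log2 fold change of the members was 0.23, that of all genes tested 0.02. In bulk hearts, fewer cells of a type and less RNA per cell cannot be told apart, which holds for every value here.

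Hmgb2 (ENSMUSG00000054717; chr8:57511907-57515999, plus strand) had 34.6, 32.3 and 27.5 FPKM in the Charme WT pools and 89.6 and 55.7 FPKM in the Charme KO pools, from 1632 to 3796 counts a pool. Every Charme KO pool was above every Charme WT pool, and the Charme KO pools differed more from each other (72.6 ± 24 FPKM, n = 2) than the controls did. The log2 fold change was 1.21 (SE 0.220, edgeR adjusted p = 0.0450), with a 95% interval of 0.71 to 1.7. With Charme KO pool 1 alone it was 1.5 and with Charme KO pool 2 alone 0.82. The call was lost without Charme WT pool 1 (1.28, adjusted p = 0.167) and without Charme WT pool 3 (1.12, adjusted p = 0.295), settings in which at most 1 gene in either direction was called over the whole table. It was also lost with offsets for gene length and GC content (0.64, adjusted p = 0.126), Hmgb2 having a GC content of 38.7% over its exons. Over its 19 alternatives the adjusted p lay between 0.000167 (DESeq2) and 0.422.

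Other values moved with Hmgb2. Of the 5 erythroid markers, Hba-a1 was called higher and 4 exceeded each control in both knockouts, beside 1.53% and 17.8% of all genes. Their sum was 669 to 1000 CPM in the controls and 1812 and 1241 in the Charme KO pools, and none of the 5 was at 0. The sum of the fibroblast markers was likewise higher in both Charme KO pools (2660 and 2638 CPM) than in any control (1839 to 2225 CPM). Markers of thymus and T cells, which also hold much Hmgb2, summed to 1.08 to 2.68 CPM in Charme WT and 0.992 and 2.02 CPM in Charme KO pools, with Ptcra and Dntt at 0 in both Charme KO pools, and B cell markers to 1.53 to 2.48 CPM against 0.850 and 1.39. The part of erythroid cells in the Hmgb2 value was not tested.

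Hmgb1, the ubiquitous relative of Hmgb2, had 47.0, 45.4 and 43.8 FPKM in Charme WT and 84.5 and 54.4 FPKM in Charme KO pools. Its log2 fold change of 0.61 (SE 0.207, edgeR adjusted p = 0.185) was not called. Taken within each pool, the ratio Hmgb2/Hmgb1 was 0.736, 0.713 and 0.628 in Charme WT and 1.06 and 1.02 in Charme KO pools, without overlap. The mean log2 ratio differed by 0.59 (exact two-sided permutation test, p = 0.1, adjusted p = 0.16 over 8 ratios), where 0.1 is the smallest p that 3 against 2 pools can give. With the length and GC offsets it differed by 0.42. Of the 8 other high mobility group genes, Hmgn5, which binds nucleosomes and loosens compact chromatin, was called higher at 21.1 against 7.69 FPKM (1.45, adjusted p = 0.0671), and 4 exceeded all controls in both knockouts, as did 17.8% of all genes. The abundant Hmgn1 (0.21, adjusted p = 0.498) and Hmgn2 (0.05, adjusted p = 0.914) were not called. Hmgb and Hmgn genes have many processed pseudogenes, so the assignment of their reads is uncertain to the extent that reads are shared.

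Dnmt3a (ENSMUSG00000020661; chr12:3806007-3914443, plus strand), the more abundant of the de novo methyltransferases, had 6.48, 7.86 and 8.07 FPKM in the Charme WT pools and 4.56 and 4.48 FPKM in the Charme KO pools. Both Charme KO pools were below all controls and lay close together (4.52 ± 0.0583, n = 2) on 1071 and 1662 counts. The log2 fold change was −0.73 (SE 0.179, 95% interval −1.12 to −0.33), and the adjusted p of 0.102 from edgeR's quasi-likelihood test stood just outside the threshold. It was inside the threshold by the likelihood ratio test (adjusted p = 0.0282), by DESeq2 (adjusted p = 0.0141) and without mitochondrial and salivary gland genes (adjusted p = 0.0983). It was outside the threshold in 14 alternatives, up to an adjusted p of 0.496. The value was −0.72 with Charme KO pool 1 alone and −0.74 with Charme KO pool 2 alone. With the length and GC offsets the value was −0.47 (adjusted p = 0.147). The counts are per gene and do not separate the long and short Dnmt3a isoforms.

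Dnmt3b (ENSMUSG00000027478; chr2:153649450-153687730, plus strand), the enzyme of the early embryo, had 0.580, 0.721 and 0.892 FPKM in Charme WT and 0.610 and 0.755 in Charme KO pools. The groups overlapped on only 44 to 90 counts a pool, and the log2 fold change of −0.09 (SE 0.322, adjusted p = 0.904) had a 95% interval from −0.80 to 0.63. It was −0.26 with Charme KO pool 1 alone and 0.0504 with Charme KO pool 2 alone, and its direction turned in 5 alternatives. The ratio Dnmt3b/Dnmt3a was higher in both Charme KO pools (0.135 and 0.170) than in any Charme WT pool, a mean log2 difference of 0.64 (exact permutation test, p = 0.1, adjusted p = 0.16).

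Dnmt1 (ENSMUSG00000004099; chr9:20907209-20959888, minus strand), the maintenance methyltransferase, had 7.43, 9.32 and 8.08 FPKM in Charme WT pools and 7.68 and 8.26 FPKM in Charme KO pools. Both Charme KO values lay inside the range of the controls. The log2 fold change of −0.05 (SE 0.180, adjusted p = 0.892) had a 95% interval from −0.45 to 0.35, or 0.730-fold to 1.27-fold. It was −0.11 with Charme KO pool 1 alone and −0.000246 with Charme KO pool 2 alone, and turned to 0.0403 without Charme WT pool 2 and to 0.18 with the length and GC offsets. The ratio Dnmt1/Dnmt3a was 1.15, 1.19 and 1.0 in Charme WT and 1.69 and 1.85 in Charme KO pools, which did not overlap (0.67 on the log2 scale, exact permutation test, p = 0.1, adjusted p = 0.16). Scaled to exon length, Dnmt1 and Dnmt3a messages were near parity in control hearts, and Dnmt1 exceeded Dnmt3a in both Charme KO pools. This order rests on exon-union lengths of 7377 bases for Dnmt1 and 16642 bases for Dnmt3a. In CPM, without that scaling, Dnmt3a exceeded Dnmt1 in controls (means of 124 and 61.1). It did so too in the Charme KO pools (75.9 and 74.5 against 56.7 and 61.0).

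Uhrf1 (ENSMUSG00000001228; chr17:56303321-56323486, plus strand), the guide of DNMT1, varied among the controls themselves, at 6.07, 10.6 and 6.58 FPKM, against 11.0 and 8.65 FPKM in Charme KO pools. Charme WT pool 2 lay between the Charme KO pools. The log2 fold change was 0.34 (SE 0.261, adjusted p = 0.496, 95% interval −0.24 to 0.92). It was 0.50 with Charme KO pool 1 alone and 0.16 with Charme KO pool 2 alone, and 0.19, 0.64 and 0.24 without Charme WT pool 1, 2 or 3. The ratio Uhrf1/Dnmt1 was 0.817, 1.14 and 0.815 in Charme WT and 1.43 and 1.05 in Charme KO pools and overlapped (0.43, exact permutation test, p = 0.3, adjusted p = 0.4).

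Hells (ENSMUSG00000025001; chr19:38930915-38971051, plus strand) had 0.802, 1.03 and 1.09 FPKM in the Charme WT pools, against 2.67 FPKM in the first and 1.02 FPKM in the second Charme KO pool. The excess was in Charme KO pool 1, with 272 counts, whereas Charme KO pool 2 lay within the controls. The log2 fold change over both pools was 0.91 (SE 0.374, adjusted p = 0.244), with Charme KO pool 1 alone 1.45 and with Charme KO pool 2 alone 0.0724. The exons of Hells had a GC content of 37.7%, the lowest among the members, and Charme KO pool 1 is the pool in which genes of low GC content stood high. With the length and GC offsets the value was 0.44 (adjusted p = 0.477). The part of GC content in the Hells value was not tested.

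The core subunits of PRC2 had similar profiles over the pools, and none of the 3 passed the test. Ezh2 (ENSMUSG00000029687; chr6:47530139-47595341, minus strand) had 4.35, 3.67 and 4.29 FPKM in Charme WT and 5.42 and 4.11 FPKM in Charme KO pools. Eed (ENSMUSG00000030619; chr7:89954654-89980983, minus strand) had 6.15, 4.44 and 5.71 FPKM against 6.88 and 6.10 FPKM. Suz12 (ENSMUSG00000017548; chr11:79993106-80034123, plus strand) had 11.6, 9.86 and 10.5 FPKM against 13.3 and 9.45 FPKM. All 3 were lowest among controls in Charme WT pool 2 and highest overall in Charme KO pool 1, and each overlapped between genotypes.

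The log2 fold changes of the PRC2 core were 0.21 for Ezh2 (SE 0.205, adjusted p = 0.593, 95% interval −0.25 to 0.67), 0.25 for Eed (SE 0.216, adjusted p = 0.542, 95% interval −0.23 to 0.74) and 0.09 for Suz12 (SE 0.200, adjusted p = 0.828, 95% interval −0.35 to 0.54). Charme KO pool 1 alone gave 0.39 for Ezh2, 0.33 for Eed and 0.31 for Suz12, and Charme KO pool 2 alone 0.00144, 0.17 and −0.17. Without Charme WT pool 2 the values were 0.14 for Ezh2, 0.13 for Eed and 0.0411 for Suz12. Without Charme WT pool 1 the values were 0.26 for Ezh2, 0.36 for Eed and 0.16 for Suz12. With the length and GC offsets they were 0.0610, 0.16 and −0.22. A level more than 1.67-fold higher in Charme KO lay outside these 3 intervals. Over the 5 pools, the root mean square difference of log2 CPM centred on the Charme WT mean was 0.0986 between Ezh2 and Suz12, 0.108 between Ezh2 and Eed and 0.181 between Eed and Suz12. These were the 3 smallest among the member pairs, the next being Dnmt1 and Dnmt3b at 0.185. Genes outside the members came closer still, with Brwd1 at 0.0109 from Ezh2, Mgme1 at 0.0240 from Suz12 and Tax1bp1 at 0.0310 from Eed. The likeness is therefore not particular to the PRC2 core. The ratios Ezh2/Eed (−0.06, exact permutation test, p = 0.6, adjusted p = 0.6) and Suz12/Eed (−0.19, exact permutation test, p = 0.5, adjusted p = 0.571) overlapped between genotypes.

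Ezh1 had a log2 fold change of the opposite sign to Ezh2. It had 4.11, 4.18 and 5.16 FPKM in Charme WT and 3.64 and 2.98 FPKM in Charme KO pools, below every control, with a log2 fold change of −0.44 (SE 0.207, adjusted p = 0.285) that was not called. The ratio Ezh2/Ezh1 was 1.06, 0.877 and 0.832 in Charme WT pools and 1.49 and 1.38 in Charme KO pools, a mean log2 difference of 0.64 without overlap (exact permutation test, p = 0.1, adjusted p = 0.16), which was 0.35 with the length and GC offsets. Among all 9 other PRC2 genes, 0 were called by edgeR in either direction and the median log2 fold change was −0.20, with 3 above and 4 below all controls. Over all genes tested 1.53% were called higher and 0.524% lower, 17.8% lay above and 18.2% below. The histone chaperones Rbbp7 (0.36, adjusted p = 0.329) and Rbbp4 (0.31, adjusted p = 0.390) were the most abundant, and Phf1, which tethers PRC2 to chromatin, had −0.50 (adjusted p = 0.276).

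Suv39h1 (ENSMUSG00000039231; chrX:8061171-8074760, minus strand) had 2.32, 3.24 and 2.42 FPKM in Charme WT and 3.31 and 3.72 FPKM in Charme KO pools. The Charme KO pools were above the controls by a small margin over Charme WT pool 2. The log2 fold change of 0.40 (SE 0.232, adjusted p = 0.373, 95% interval −0.12 to 0.92) was not called, and was 0.31 with Charme KO pool 1 alone and 0.49 with Charme KO pool 2 alone. Its paralog Suv39h2 had 0.518, 0.629 and 0.482 FPKM against 1.09 and 0.844 FPKM (0.82, adjusted p = 0.218). The ratio Suv39h1/Suv39h2 was lower in Charme KO (3.01 and 4.38) than in Charme WT pools (4.45, 5.11 and 4.97), by 0.41 on the log2 scale, with the highest Charme KO value close to the lowest control (exact permutation test, p = 0.1, adjusted p = 0.16). The difference was −0.0893 with the length and GC offsets, −0.14 with Charme KO pool 2 alone and −0.68 with Charme KO pool 1 alone.

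**Figure D3:**
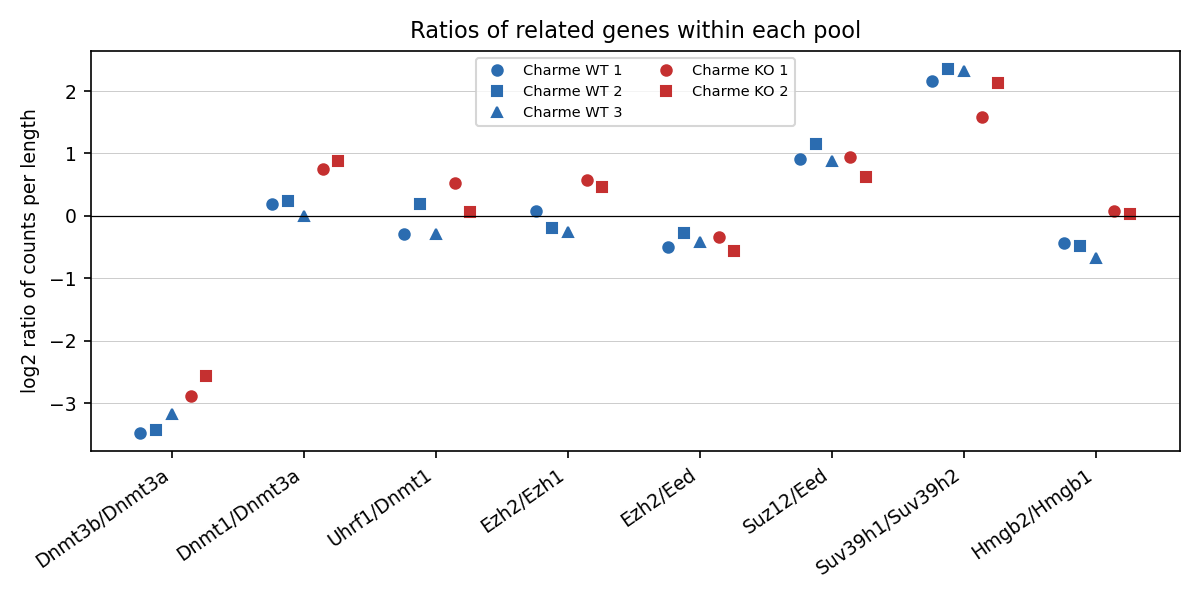
Log2 ratio of counts per exon length for 8 pairs of related genes within each pool, blue for Charme WT and red for Charme KO. The red points do not overlap the blue ones for Dnmt3b/Dnmt3a, Dnmt1/Dnmt3a, Ezh2/Ezh1, Hmgb2/Hmgb1 and, by a narrow gap, Suv39h1/Suv39h2, and overlap them for Uhrf1/Dnmt1, Ezh2/Eed and Suz12/Eed.

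Mitotic genes are given beside the members, since several of the members are known as genes of dividing cells, and the difference between the lists was not tested. All 7 mitotic genes on the list (Mki67, Top2a, Ccna2, Ccnb1, Cdk1, Birc5 and Bub1) were called higher, with log2 fold changes from 1.47 to 1.91, and their sum was 286 to 421 CPM in controls and 1526 and 856 CPM in the knockouts. Of 8 genes of S phase, when DNMT1 and UHRF1 act, 0 were called by edgeR and 2 by the likelihood ratio test. Their values ran from 0.02 to 0.88, with Rrm2 at 0.83 (adjusted p = 0.158), Mcm7 at 0.59 (adjusted p = 0.192) and Mcm6 at 0.55 (adjusted p = 0.247). Pcna, the replication clamp that binds DNMT1, had 0.86 (adjusted p = 0.175). Hmgb2 lay below the mitotic range and above the S phase range.

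**Figure D4:**
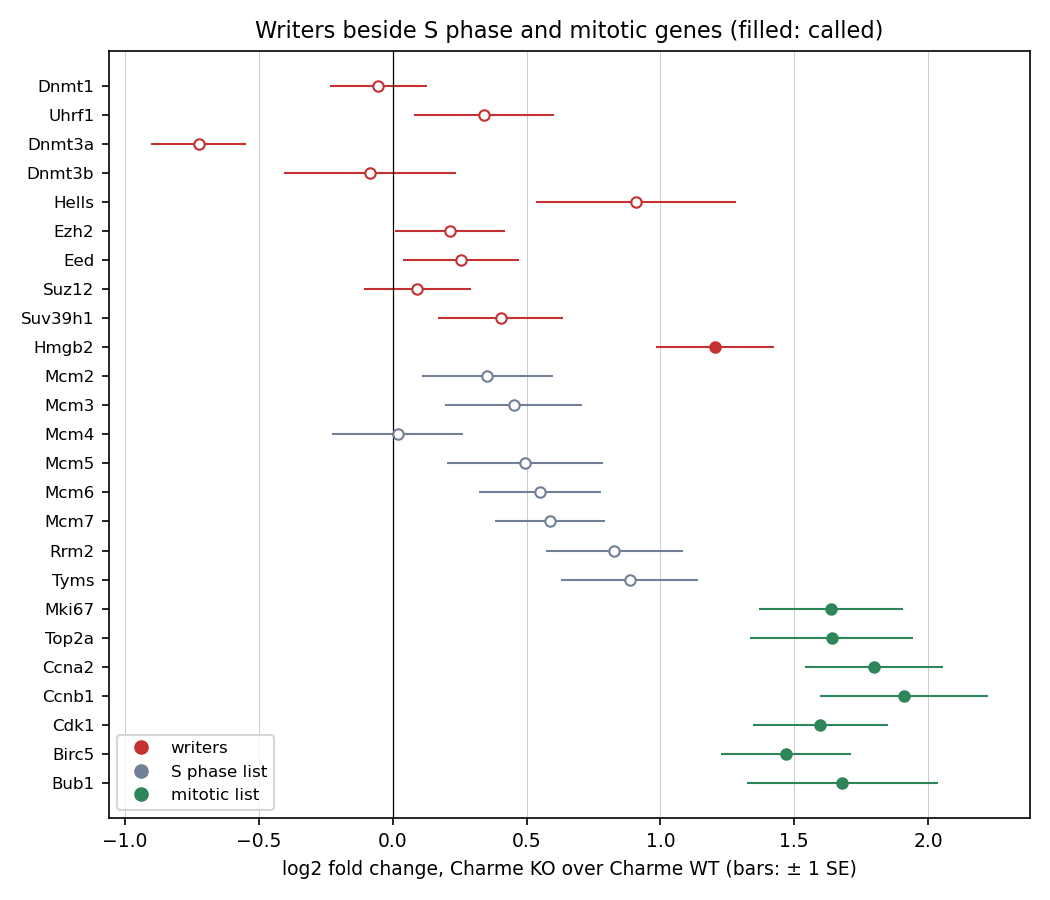
Log2 fold change of Charme KO over Charme WT (horizontal axis, bars ± 1 SE, 3 against 2 pools) for the 10 members (red), 8 S phase genes (grey) and 7 mitotic genes (green), with filled points for called genes. Hmgb2 (1.21) is the only filled red point, Dnmt3a (−0.73) the only member clearly left of 0, and all 7 green points are filled.

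Set against Mki67 in the same pool, all members but Hells had lower ratios in the knockouts than in any control. This ratio was chosen after the values were seen and has no test. Dnmt1 stood at 0.591, 1.06 and 0.906 of the Mki67 FPKM in Charme WT and at 0.188 and 0.377 in Charme KO pools, and Ezh2 at 0.346, 0.418 and 0.482 against 0.133 and 0.188. Hmgb2 stood at 2.75, 3.69 and 3.08 against 2.19 and 2.54, a narrow gap. Hells overlapped, at 0.0638, 0.117 and 0.122 against 0.0655 and 0.0466. Since Mki67 itself was called higher (1.64, edgeR adjusted p = 0.0390), these ratios share that rise, and a gene of unchanged level falls too. The share of all genes so placed was not computed, so the count is not a result about the members.

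**Figure D5:**
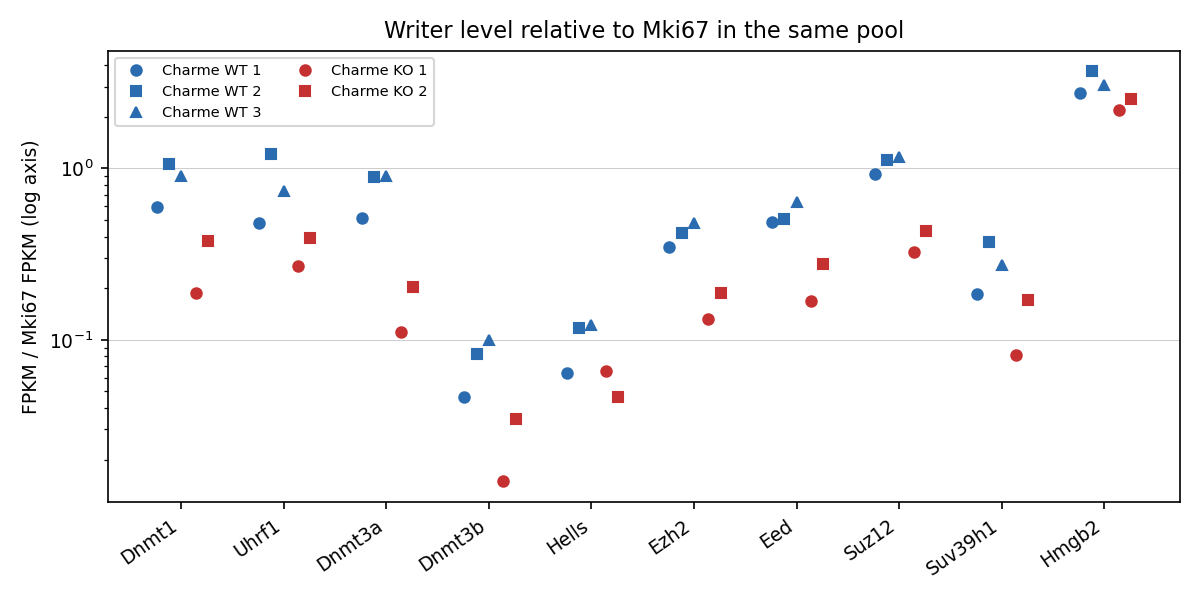
FPKM of each member divided by the FPKM of Mki67 in the same pool (log axis), blue for Charme WT and red for Charme KO pools. The red points lie below all blue points for 9 genes, narrowly for Hmgb2 (at most 2.54 against at least 2.75) and Suv39h1 (at most 0.170 against at least 0.185), and overlap them for Hells. The share of all genes so placed was not computed.

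The genes whose profile over the 5 pools came closest to that of a member, among 11079 other protein-coding genes with at least 1 FPKM (11080 for Dnmt3b, which is itself under 1 FPKM), were ranked by the root mean square difference of centred log2 CPM. Nearest to Hmgb2 were Kif15, a kinesin of the spindle (0.0344), Insl6 (0.0729) and Ldha (0.0844). Nearest to Dnmt3a were Herc2 (0.0310), Prdm16 (0.0329) and Tmem25 (0.0471). For Hells they were Ccne2, a cyclin of the G1 to S transition (0.108), Itga1 (0.119) and Slfn9 (0.119). Dnmt1 had Tmem246 (0.0187), Parm1 (0.0207) and Flna (0.0296), Uhrf1 had Slc35g2 (0.0623), Fastkd3 (0.0732) and Rimkla (0.0868), and Dnmt3b had Ubash3b (0.0309), Prr14l (0.0373) and Ammecr1l (0.0503).

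In the PRC2 core, Ezh2 had Brwd1 (0.0109), Ncl (0.0245) and Grtp1 (0.0257), Eed had Tax1bp1 (0.0310), Med31 (0.0397) and Senp6 (0.0420), and Suz12 had Mgme1 (0.0240), Ccdc90b (0.0296) and Pyurf (0.0355). The closest to Suv39h1 were Gpsm2 (0.0422), Alkbh3 (0.0639) and Agfg2 (0.0701). With 5 pools and so many genes, close profiles are a description.

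Of 94 other chromatin genes in 10 lists, 92 were tested, and 1 was called higher (1.09%, beside 1.53% of all genes) and 2 lower (2.17%, beside 0.524%), Hmgn5 above being the former. Kdm6b, a demethylase that removes the PRC2 mark, fell from 12.8 to 6.16 FPKM (−1.05, SE 0.247, adjusted p = 0.0917). It had 9.84, 13.9 and 14.6 FPKM in Charme WT and 4.88 and 7.43 FPKM in Charme KO pools, while Kdm6a, its X-linked relative, had 0.41 (adjusted p = 0.374). Chd3, a remodeller of the NuRD complex, fell from 10.7 to 5.85 FPKM (−0.87, SE 0.183, adjusted p = 0.0689). Kdm6b and Chd3 had a GC content of 59.6% and 56.1%, in the range where the median gene of Charme KO pool 1 lay low. Hmgn5 had 40.7%, in the range where it lay high. With the length and GC offsets 1 of the other chromatin genes was called higher and 2 lower, counts that do not show whether they are the same genes. The part of GC content in the calls of Kdm6b, Chd3 and Hmgn5 was not tested. The median of the 92 genes was −0.15, with 30 of them below and 16 above each control in both knockouts (32.6% and 17.4%, beside the 18.2% and 17.8% of all genes).

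By list, edgeR called 0 of the 7 DNA demethylation genes, 0 of 8 methyl-CpG readers, 0 of 7 tested DNA methylation partners, 0 of 19 PRC1 subunits, 0 of 10 other genes of lysine 9 methylation and 0 of 10 genes of lysine 4 methylation. The likelihood ratio test called 2 demethylation genes and 1 PRC1 gene lower and 1 methylation partner higher. Among demethylation genes, Gadd45a had 4.24 against 2.10 FPKM (−1.01, adjusted p = 0.137), and the abundant Gadd45b (−0.10, adjusted p = 0.872) and Tdg (−0.15, adjusted p = 0.673) were near 0. Of the 7 demethylation genes, 6 had negative values, and 3 lay below and 0 above every control, beside 18.2% and 17.8% of all genes. The PRC1 subunits, which bind the PRC2 mark and ubiquitylate histone H2A, had a median of −0.41, with 7 of 19 below and 2 above every control, and the lysine 4 genes, which oppose Polycomb, had −0.37 with 6 of 10 below and 1 above, where 18.2% of all genes lay below and 17.8% above. Of the PRC1 genes 7 of 19, and of the lysine 4 genes 4 of 10, had a GC content over 54.48%, the third quartile of the genes tested. In that range the median gene of Charme KO pool 1 lay 0.47 low. Of the genes below every control, 4 of the 7 PRC1 genes and 2 of the 6 lysine 4 genes were in it. The part of GC content in these counts was not tested. The most abundant PRC1 genes over the 5 pools were Yaf2 at 0.06 (adjusted p = 0.879), Bmi1 at 0.01 (adjusted p = 0.977) and Rnf2 at 0.63 (adjusted p = 0.257), the last through Charme KO pool 1 (26 FPKM against 11.0 to 13.4 elsewhere). Phc2, more abundant than Rnf2 in controls and named after its values were seen, had 15.5 against 10.6 FPKM (−0.54, adjusted p = 0.256), and 12 of the 19 values were negative. Trim28, the corepressor that recruits lysine 9 methylation, had −0.20 (adjusted p = 0.634), Cbx5, which encodes HP1 alpha, 0.39 (adjusted p = 0.418) and Ehmt2, the euchromatic lysine 9 enzyme, −0.57 (adjusted p = 0.175).

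Other abundant members of these lists stayed below the threshold too. They were Usp7 (0.03, adjusted p = 0.942) and Lig1 (0.18, adjusted p = 0.664) among methylation partners, Mbd3 (−0.31, adjusted p = 0.476), Mbd2 (0.00, adjusted p = 0.998) and Zbtb4 (−0.51, adjusted p = 0.223) among readers, Chd4 (−0.42, adjusted p = 0.391) and Smarca4 (−0.33, adjusted p = 0.434) among remodellers, and Dpy30 (0.53, adjusted p = 0.207), Wdr5 (−0.25, adjusted p = 0.462) and Ash2l (−0.30, adjusted p = 0.368) among lysine 4 genes.

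Genes that these marks keep silent in many somatic cells were mostly at or near 0 in both genotypes, with Cdkn1c as the exception. Of 17 developmental genes known as Polycomb targets, 5 had 0 counts in every pool, 4 had enough counts to test and 0 were called by edgeR (1 higher by the likelihood ratio test, Cdkn1c). Cdkn1c, an imprinted inhibitor of the cell cycle and the only abundant gene of the list, had 55.9, 56.8 and 46.8 FPKM in Charme WT and 68.9 and 117 FPKM in Charme KO pools, above every control (0.81, SE 0.229, adjusted p = 0.140). Cdkn2b had 0.21 (adjusted p = 0.901).

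Of 14 germline genes that DNA methylation silences, 2 had 0 counts in every pool, 3 were tested and 0 were called by edgeR or the likelihood ratio test. Brdt (−0.32, adjusted p = 0.630), Slc25a31 (−0.09, adjusted p = 0.935) and Ddx4 (−1.33, adjusted p = 0.313) had under 0.5 FPKM in each genotype. Sycp3, named after its values were seen, had 2 counts in each control and 7 and 17 counts in the knockouts, too few to enter the test. The summed level of the list was 4.19 to 5.44 CPM in controls and 5.60 and 3.94 CPM in the knockouts.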

How the data were processed

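Each library came from several hearts of a single genotype, taken from littermates and combined ahead of RNA isolation, and was made with a stranded poly(A) kit. Per the labels, the authors trimmed reads with cutadapt and aligned them with STAR (mm10, GRCm38); the deposited table holds whole-number counts per gene, strand-specific and not normalized. The authors' own FPKM were left aside, because that table writes decimal commas and its unit could not be checked. Counts were tested with edgeR 4.0.16 in R 4.3.3 (limma 3.58.1; quasi-likelihood F test, TMM scaling, genotype only) over 14880 genes (10 counts or more in 2 or more of the 5 pools), and DESeq2 1.42.0 was an alternative. FPKM were computed from the counts with exon-union lengths of GENCODE M21 for GRCm38, whose identifiers matched 49411 of 49671 genes. Within-pool ratios add 0.5 to each count, and their exact two-sided permutation tests run over 10 assignments of the pools. The 95% intervals use the residual spread of the edgeR fit. The fit was also run on simulated counts. These held none of the differences in GC content, mitochondrial share or tissue markers seen between the pools, so that run does not cover them.

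The members and all gene lists were chosen with earlier results of these data known. Named genes are the 10 members, the 3 most abundant and any called genes of each chromatin, target and proliferation list, the counterpart genes of the ratios, and the 3 genes nearest to each member by profile. The ratios to Mki67 and the naming of Sycp3 and Phc2 were chosen after the values were seen, and 1 gene of the Polycomb target list that the rule would name is not reported here. Depth was 16721055 to 21646378 counts a pool, and precision is limited by the number of pools. Promoter sequences are from RefSeq (GRCm38.p6), with windows for 10 of 10 members, and the motifs were chosen with the members known. The alternatives tried were other tests, scalings and filters, offsets for length and GC content, a replicate block, and leaving out each pool in turn.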

Additional observations from a re-analysis of the deposited data

How the results depend on the processing

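With 2 Charme KO pools, every call has little support. Over the members, the 19 alternatives gave 169 log2 fold changes with the same direction and side of the threshold, 6 newly past it (5 of Dnmt3a, 1 of Hells), 4 no longer past it (all Hmgb2) and 11 of the other direction. Directions turned for Dnmt1 with length and GC offsets (0.18), with a replicate block and these offsets (0.14) and without Charme WT pool 2, the range on leaving out each pool being −0.12 to 0.0403. They turned for Dnmt3b with the replicate block (0.0701), the offsets (0.0513), both (0.21) and without Charme WT pool 3 or Charme KO pool 1 (range −0.26 to 0.0806), for Suz12 with the offsets (−0.22), both (−0.26) and without Charme KO pool 1 (−0.17 to 0.31), and for Ezh2/Eed without Charme KO pool 2 (−0.18 to 0.050). The cause was not tested.

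Genes called higher and lower, 227 and 78 over the whole table, were 584 and 349 with the likelihood ratio test, 645 and 477 with DESeq2, 97 and 14 at an adjusted p under 0.05, 170 and 51 with the robust fit, 223 and 136 with the offsets, 150 and 60 with the replicate block, and 31 and 4 with block and offsets. Leaving out each pool gave 0 to 2336 higher and 0 to 2271 lower. The lowest counts were without Charme WT pool 3 (0 by edgeR, 1315 genes at an unadjusted p under 0.05) and the highest without Charme KO pool 2. Leaving out a Charme KO pool leaves 1, which is assumed to vary like the controls, and 2 of the 5 Dnmt3a values newly past the threshold and that of Hells come from such fits.

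Members called higher (1) became 0 with the offsets and with block and offsets, and 0 to 2 on leaving out a pool. Members called lower (0) became 1 with DESeq2, with the likelihood ratio test and when mitochondrial and salivary gland genes were left out, and 0 to 1 on leaving out a pool. Of the other chromatin genes, 1 higher and 2 lower became 3 and 7 with DESeq2, 2 and 5 with the likelihood ratio test, 0 and 0 at an adjusted p under 0.05, 1 and 1 with the legacy fit, the robust fit, upper-quartile scaling and the replicate block, and 0 and 0 with block and offsets. Leaving out each pool gave 0 to 17 higher and 0 to 26 lower. Hmgb2 kept its call with the replicate block (1.08, adjusted p = 0.0548).

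In the sample labels same-numbered pools share only a number. Their deviations from the group means correlated at r = 0.158 and 0.0961 across genes for the 2 numbers. These values cannot decide whether such pools were related, since the deviations of 2 Charme KO pools from their own mean mirror each other. The alternative on the FPKM values of the authors' table was not run.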
